A study of Mus musculus with 10 samples.

Results

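The genes for chemokines and their receptors were examined in liver RNA of wild-type and *Ndrg3* knockout mice. The members were all gene symbols built from Ccl, Ccr, Cxcl, Cxcr, Cx3cl, Cx3cr, Xcl or Xcr and a number, with or without a final letter. This rule found 57 of the 24052 gene symbols listed, of which 56 are described here, 39 for ligands and 17 for receptors. RNA sequencing covered 10 livers, 5 from wild-type littermates and 5 from Ndrg3 LKO mice, with 1 library per liver. The figure legends of the study give only 4 Ndrg3 LKO livers for these data, without naming a liver left out. All 5 are used here. All mice were on a C57BL/6 background, the *Ndrg3* allele having been carried onto C57BL/6N by more than 5 backcross generations. They were fed ad libitum, and their age was given as 8 to 10 weeks in one place and 10 to 12 weeks in another. In Ndrg3 LKO mice a floxed exon 4 of *Ndrg3* was removed by Cre recombinase under the albumin promoter, which is active in hepatocytes. Wild-type livers carried no deletion, and whether they carried floxed alleles or Cre was not given in the sources used here. Male mice were the stated default of the study. The libraries held RNA of whole liver, so that blood, bile duct, vessel and resident immune cells were included beside hepatocytes.

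Chemokines are small secreted proteins that direct the movement of leukocytes along a gradient, and they are grouped by the spacing of their first cysteines into CC, CXC, CX3C and XC families. Their receptors are G protein-coupled receptors on the migrating cells, so that ligand genes are commonly read in tissue cells and receptor genes in leukocytes. In the liver, CCL2 with its receptor CCR2 draws monocytes, and CXCL1, CXCL2, CXCL3 and CXCL5 act on CXCR2 of neutrophils. CXCL9 and CXCL10 act on CXCR3 of T cells, and CXCL12 with CXCR4 retains haematopoietic cells. Several of the ligands belong to the genes induced by NF-kappaB or by interferons.

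Letters bound by factors of that kind stand before several CXC ligand genes, and 4 of these are shown, because the neutrophil chemokines *Cxcl1*, *Cxcl2* and *Cxcl3* share a match and *Cxcl10* holds one of the other kind. The sequences came from RefSeq (GRCm38.p6), each matched to 1 place in NCBIM37 (mm9), the assembly of the deposited data, and are written 5′ to 3′ on the strand of the gene. Capitals mark the letters GGGNNTTTCC or GGAAANNCCC of a kappaB-like match in *Cxcl1* (chr5:91320122-91320241, plus strand), *Cxcl2* (chr5:91332768-91332887, plus strand) and *Cxcl3* (chr5:91214994-91215113, plus strand). In *Cxcl10* (chr5:92778046-92778165, minus strand) they mark the letters GAAANNGAAA (or TTTCNNTTTC) of a match to the interferon-stimulated response element (ISRE).
Cxcl1: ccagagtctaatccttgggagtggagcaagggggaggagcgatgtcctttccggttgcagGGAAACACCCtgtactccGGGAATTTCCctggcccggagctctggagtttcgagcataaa
Cxcl2: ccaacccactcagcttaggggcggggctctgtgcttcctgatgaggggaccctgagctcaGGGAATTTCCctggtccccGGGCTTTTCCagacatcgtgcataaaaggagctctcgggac
Cxcl3: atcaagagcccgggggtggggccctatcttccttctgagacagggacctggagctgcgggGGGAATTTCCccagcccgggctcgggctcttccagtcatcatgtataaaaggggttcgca
Cxcl10: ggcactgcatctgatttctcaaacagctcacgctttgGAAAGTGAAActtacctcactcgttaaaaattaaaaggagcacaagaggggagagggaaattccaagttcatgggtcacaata
Both strands of the 250 bases before each gene start were searched. *Cxcl1*, *Cxcl2* and *Cxcl3* shared the match GGGAATTTCC, and *Cxcl1* and *Cxcl2* held a further kappaB match each. Of the 41 members with a RefSeq promoter, 6 (14.63%) held a kappaB match, beside 447 of all 27025 genes (1.65%). The other 3 were *Ccl20*, *Ccl9* and *Ccr3*. An ISRE match stood in 3 of the 41 (7.32%), *Ccl19*, *Cxcl10* and *Cxcl14*, beside 936 of all genes (3.46%). A match describes letters only. Of these 9 members, *Cxcl1*, *Ccr3* and *Cxcl14* were called higher in Ndrg3 LKO livers, *Cxcl1* and *Ccr3* having entered their fits mainly through those livers. *Ccl9*, *Ccl19* and *Cxcl10* were tested and not called, and *Cxcl2*, *Cxcl3* and *Ccl20* were below the limits of both fits. Thus 2 of 3 tested with a kappaB match and 1 of 3 with an ISRE match were higher, beside 10 of all 20 tested members with a RefSeq promoter.

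Library totals ran from 20872262 to 24747870 counts for wild-type and from 23474693 to 30450057 for Ndrg3 LKO livers, so that 3 counts, taken as the smallest signal, stood for between 0.0727 and 0.179 CPM (counts scaled to a common library total). CPM values were adjusted by edgeR's TMM factors, and log2 fold changes are Ndrg3 LKO minus wild-type throughout. *Ndrg3*, the deleted gene, lay at 15.9 to 21.9 CPM in the wild-type group and at 7.07 to 9.16 CPM in the Ndrg3 LKO group. Ndrg3 LKO replicate 5 stood apart from the other Ndrg3 LKO livers, with 14.1 on a first principal component where those lay between 51.1 and 56.6 and wild-type livers between -49.9 and -43.0. Ndrg3 LKO replicate 5 also resembled wild-type livers in the share of counts held by the 20 highest genes (26.6%, beside 26.2% to 28.0% in wild-type and 16.3% to 17.3% in Ndrg3 LKO replicates 1 to 4). Where leaving it out changed the call of a member, this is said where that member is described. Totals over all members and counts of marker and pathway lists that changed are also given without it. Counts by role, family and chromosome group rest on all livers.

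Most chemokine genes were close to the limit of detection in these livers. Of the 56 members described, 12 ligands had at least 1 CPM in at least 5 livers and entered the main test. Another 14 members (4 ligands and 10 receptors) had a mean of at least 0.2 CPM over the 10 livers and were tested in a second fit with that lower limit. A further 23 had counts but too few for either fit, and 7 (*Ccl21a*, *Ccl21b*, *Ccl21c*, *Ccl26*, *Ccl27b*, *Cxcl15* and *Ccr6*) were at 0 in every liver.

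Among these 12 members of the main test, 5 were higher in Ndrg3 LKO livers at an adjusted p under 0.05 (edgeR's quasi-likelihood test, adjusted over all genes tested), where 25.6% of the 11208 genes tested were called higher. These were *Ccl24*, *Ccl6*, *Cxcl1*, *Cxcl16* and *Ccl25*. *Cxcl12* alone was lower, where 23% of all genes were called lower. The remaining 6 were not called. The median log2 fold change of the 12 was 0.80, beside 0.03 over all genes tested. Every Ndrg3 LKO liver lay above every wild-type liver for 2 members (15.6% of all genes) and below for 1 (15.9% of all genes). Of the 12, 5 reached 1 CPM in fewer than 5 wild-type livers and so passed the limit mainly through Ndrg3 LKO livers. This holds for *Ccl24* and *Cxcl1* among those called, and the counts above are therefore a description. Without Ndrg3 LKO replicate 5, 5 members were higher and 2 lower, while 3176 of all genes were higher and 3026 lower.

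In the second fit, 14 of 26 members were higher (23.9% of 13422 genes) and 1 was lower (22.8%). The groups did not overlap for 7 of the 26, with Ndrg3 LKO livers above for 6 (15.8% of all genes) and below for 1 (14.2%). The median log2 fold change was 1.03 over the 26 members and 0.04 over all genes tested. By role, 8 of 16 ligands and 6 of 10 receptors were higher. Of the 26, 5 had a wild-type mean under 0.2 CPM (*Ccl2*, *Ccr1*, *Ccr3*, *Ccr7* and *Cx3cr1*), so that they entered through the Ndrg3 LKO livers and could only be called higher, and no member tested had an Ndrg3 LKO mean under 0.2 CPM. Of the other 21 members, 9 were higher. These means are TMM-normalized, whereas the limit was set on CPM before TMM, which were lower in wild-type livers (TMM factors 0.805 to 0.917). *Cxcr3*, with a TMM-normalized wild-type mean of 0.220, was therefore close to the limit, and it was not called. The counts and the median are therefore a description here too. Without Ndrg3 LKO replicate 5, 14 were higher and 2 lower, beside 3477 and 3519 of all genes. These 14 were not the same members, since *Ccr7* lost its call (adjusted p = 0.0635) and *Cxcl13* gained one (adjusted p = 0.0448).

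**Figure D1:**
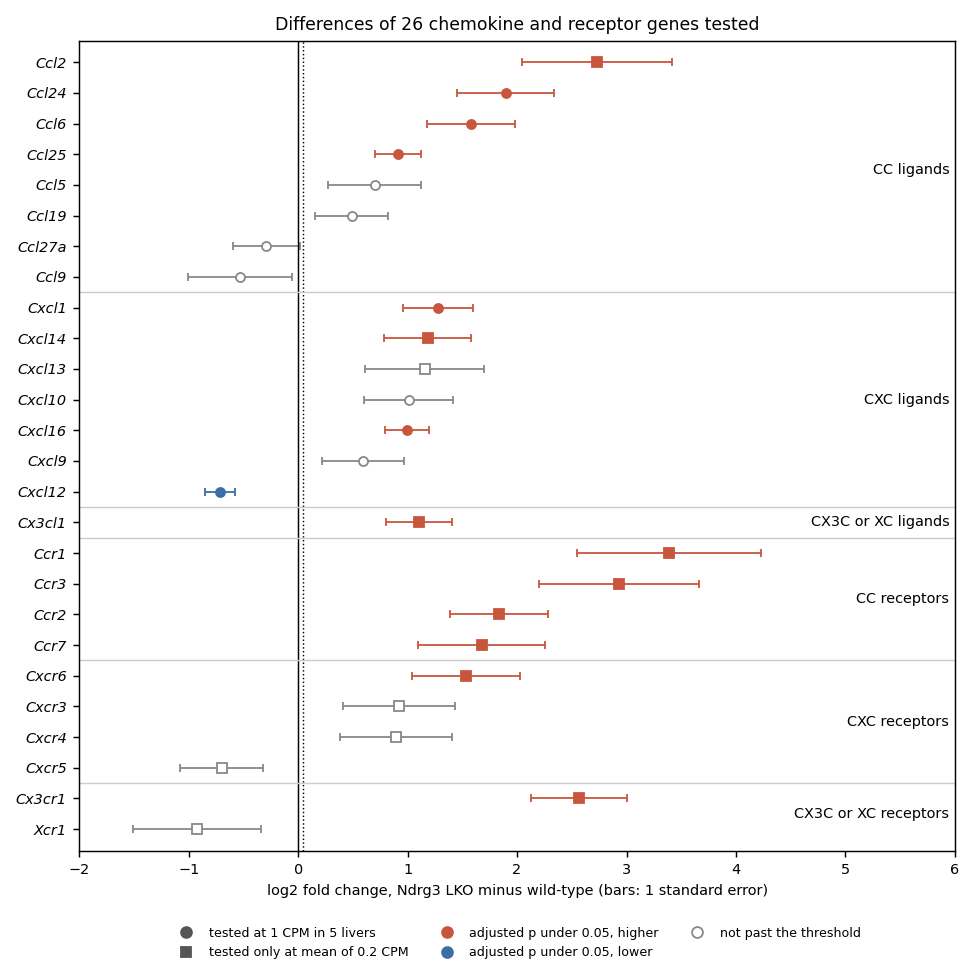
Log2 fold change (horizontal axis, Ndrg3 LKO minus wild-type) of 26 members tested, grouped by family, with bars of 1 standard error. Filled red points passed the threshold as higher, the filled blue point (*Cxcl12*) as lower and open grey points did not pass. Circles were tested at 1 CPM in 5 livers and squares only at a mean of 0.2 CPM, and the dotted line is the median of all genes (0.04). All 4 CC receptors shown lie to the right at 1.68 or more, while *Cxcl12*, *Ccl9*, *Ccl27a*, *Cxcr5* and *Xcr1* lie to the left of 0. Of the CC receptors, *Ccr1*, *Ccr3* and *Ccr7* entered the fit through the Ndrg3 LKO livers.

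A single ligand gene made up most of the chemokine signal. *Cxcl12*, which holds haematopoietic and immune cells in place through CXCR4, lies on chromosome 6 from 117118553 to 117131385. Its TMM-normalized CPM were 297, 257, 261, 298 and 230.3 in wild-type replicates 1 to 5 and 163, 147, 187, 139 and 183 in Ndrg3 LKO replicates 1 to 5. All Ndrg3 LKO livers lay below all wild-type livers, replicate 5 included. The means were 269 ± 28.7 and 164 ± 21.3 (SD, n = 5 each), a 1.64-fold lower level in Ndrg3 LKO livers, or -0.71 in log2 fold change (standard error, SE, 0.14; adjusted p = 0.00148). The 2-sided exact permutation test gave p = 0.00794, the smallest that 5 livers against 5 allow. When CPM were scaled by total counts in place of TMM, the median over all genes moved from 0.03 to 0.56 and the log2 fold change of *Cxcl12* was -0.20 (adjusted p = 0.286), so that it was no longer called. Relative to the median of all genes it was -0.74 with TMM and -0.76 with total counts. *Cxcl12* made up between 73.1% and 80.2% of the summed CPM of the 56 members in the wild-type group and 54.9% to 73.6% in the Ndrg3 LKO group.

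**Figure D2:**
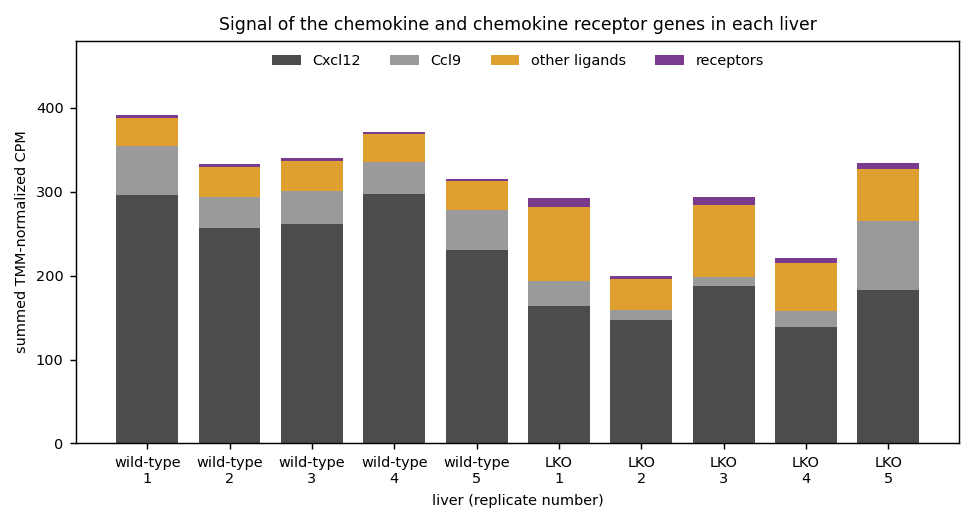
Summed TMM-normalized CPM of the 56 members in each of the 10 livers (vertical axis), split into *Cxcl12*, *Ccl9*, the other ligands and the receptors. The *Cxcl12* part is smaller in all 5 Ndrg3 LKO livers. The part of the other ligands runs from 32.8 to 36.1 CPM in wild-type livers and from 37.0 in Ndrg3 LKO replicate 2 to 88.7 in replicate 1.

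Per kilobase of exon, *Cxcl12* was also the highest member in wild-type livers, with a mean level of 32.9 CPM per kb, among the 47 members with counts and an exon length, followed by *Ccl9* with 14.6, *Ccl6* with 3.26 and *Cxcl9* with 2.50. The ranges of *Ccl6* (1.77 to 5.01) and *Cxcl9* (1.78 to 3.51) overlapped, whereas that of *Ccl9* (12.03 to 19.2) lay above both and below that of *Cxcl12* (28.2 to 36.4). *Ccl25* and *Ccl28* have no exon length here and are not in this order. *Cxcl12*, *Ccl9*, *Ccl6* and *Cxcl9* also held ranks 1 to 4 by mean level in Ndrg3 LKO livers, at 20.1, 10.1, 9.75 and 3.78 CPM per kb. There the range of *Ccl9* (3.64 to 26.7) covered that of *Ccl6* (4.75 to 16.9) whole. Without Ndrg3 LKO replicate 5 *Ccl6* stood above *Ccl9*, at 11.0 and 5.94 CPM per kb. *Ccl24* moved from rank 11 to rank 5, with 0.815 CPM per kb in wild-type and 3.05 in Ndrg3 LKO livers.

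The other ligands were described by family, beginning with the CC ligands, of which 3 of 7 in the main test were higher and none lower, beside 25.6% and 23% of all genes. Without Ndrg3 LKO replicate 5 *Ccl9* was lower (adjusted p = 0.00223). *Ccl6*, a macrophage and neutrophil chemokine of rodents, had 3.54, 8.99, 3.17, 4.82 and 8.75 CPM in wild-type livers and 21.3, 9.28, 30.4, 18.01 and 8.53 in Ndrg3 LKO livers. Replicates 1 to 4 of Ndrg3 LKO lay above all wild-type livers and replicate 5 lay among them. The log2 fold change was 1.58 (SE 0.40, adjusted p = 0.00693, exact permutation p = 0.0238), a 2.99-fold higher level. *Ccl6* overlaps *E230016K23Rik* on the opposite strand, and the strand setting of the counting is not given in the sources used here.

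*Ccl24*, the eosinophil chemokine eotaxin-2, had 0.617, 2.15, 0.724, 0.689 and 1.07 CPM in wild-type and 5.58, 2.01, 6.87, 2.79 and 2.40 in Ndrg3 LKO livers. Only Ndrg3 LKO replicate 2 fell within the wild-type range, below wild-type replicate 2. Its log2 fold change of 1.90 (SE 0.44, adjusted p = 0.00440, exact permutation p = 0.0159) was the highest of the 12 members of the main test. It lies on chromosome 5 from 136045807 to 136048913 in the neighbourhood of *Ccl26*, another eotaxin gene, which was at 0 in every liver.

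*Ccl25*, known as a chemokine of thymus and small intestine that acts on CCR9, had a log2 fold change of 0.91 (SE 0.21, adjusted p = 0.00426). Its values, given after they had been seen, were 4.43, 2.25, 4.18, 4.41 and 3.63 CPM in wild-type livers and 9.03, 6.47, 5.64, 7.72 and 6.65 in Ndrg3 LKO livers. The groups did not overlap (exact permutation p = 0.00794). The annotation holds more than 1 entry named *Ccl25*, so that no position is given.

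*Ccl9*, a macrophage chemokine that acts on CCR1, was the CC ligand with the most signal, and its call rested on 1 liver. Wild-type livers had 58.6, 36.6, 40.3, 37.9 and 48.1 CPM and Ndrg3 LKO livers 30.2, 12.02, 11.1, 19.01 and 81.4. Ndrg3 LKO replicates 1 to 4 lay below all wild-type livers, and replicate 5 lay above all of them. Over the 10 livers the log2 fold change was -0.53 (SE 0.47, adjusted p = 0.371, exact permutation p = 0.143). Without replicate 5 it was -1.29 (adjusted p = 0.00223). *Ccl9* and *Ccl6* are neighbours on chromosome 11 (83386421 to 83392138 and 83401384 to 83406589, both on the minus strand), and Ndrg3 LKO replicate 3 had the lowest level of *Ccl9* and the highest level of *Ccl6* in its group.

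The other CC ligands of the main test were not called. *Ccl5*, a T cell chemokine, had 0.488 to 1.61 CPM in wild-type and 0.485 to 2.41 in Ndrg3 LKO livers, with a log2 fold change of 0.70 (SE 0.43, adjusted p = 0.191, exact permutation p = 0.190). Ndrg3 LKO replicate 2 was below all wild-type livers, and without it *Ccl5* passed the threshold (log2 fold change 0.93, adjusted p = 0.0494). *Ccl19*, a lymphoid tissue chemokine, had 0.49 (adjusted p = 0.245) and overlaps *4930578G10Rik* on the opposite strand. *Ccl27a* had -0.29 (adjusted p = 0.446), turned to 0.16 when scaled by total counts, and overlaps *Il11ra1* on the opposite strand.

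*Ccl2*, the monocyte chemokine MCP-1, was tested only in the second fit. It had 0, 0, 5, 3 and 1 counts in wild-type livers and 35, 10, 26, 24 and 18 in Ndrg3 LKO livers, or 0 to 0.278 and 0.242 to 1.01 CPM. The log2 fold change was 2.73 (SE 0.69, adjusted p = 0.00710), and only replicate 2 of Ndrg3 LKO reached down into the wild-type range, below wild-type replicate 3. *Ccl2* overlaps *Gm17268* on the opposite strand.

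**Figure D3:**
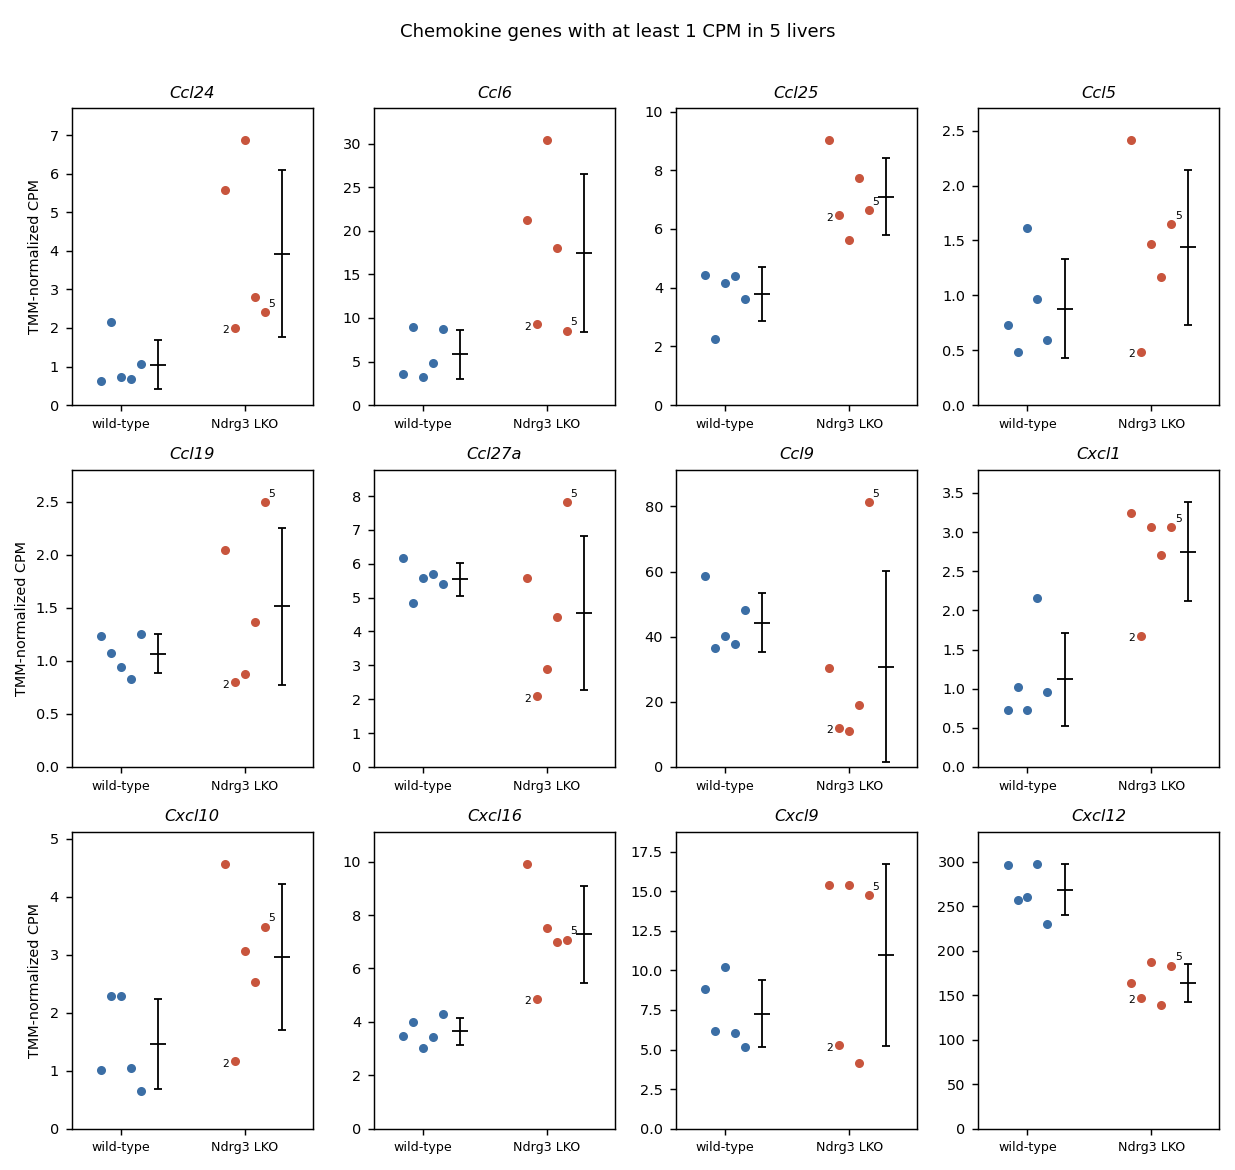
TMM-normalized CPM (vertical axis, linear and from 0, a scale per gene) of the 12 members of the main test in the 5 wild-type (blue) and 5 Ndrg3 LKO (red) livers, with mean and SD in black. The points marked 2 and 5 are Ndrg3 LKO replicates 2 and 5. Replicate 5 is the highest liver for *Ccl9*, *Ccl19* and *Ccl27a*, and replicate 2 is the lowest Ndrg3 LKO liver for 7 of the 12 ligands.

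Among the CXC ligands of the main test, *Cxcl1* and *Cxcl16* were higher, *Cxcl12* lower, and *Cxcl9* and *Cxcl10* were not called. *Cxcl1*, a neutrophil chemokine of the CXCR2 group and the first of the sequences shown, had 0.730, 1.03, 0.724, 2.16 and 0.952 CPM in wild-type livers and 3.25, 1.67, 3.06, 2.71 and 3.06 in Ndrg3 LKO livers. Ndrg3 LKO replicates 1, 3, 4 and 5 lay above all wild-type livers, and replicate 2 lay below wild-type replicate 4, the single high wild-type liver. The log2 fold change was 1.28 (SE 0.32, adjusted p = 0.00660, exact permutation p = 0.0159), a 2.42-fold higher level.

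*Cxcl16*, a membrane-bound chemokine and scavenger receptor whose partner is CXCR6, had 3.48, 4.005, 3.01, 3.45 and 4.29 CPM in wild-type and 9.92, 4.87, 7.52, 6.98 and 7.07 in Ndrg3 LKO livers, values given after they had been seen. The groups did not overlap, and the log2 fold change was 0.996 (SE 0.20, adjusted p = 0.00178, exact permutation p = 0.00794). *Cxcl16* overlaps *Zmynd15* on the opposite strand.

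The interferon-induced pair *Cxcl9* and *Cxcl10* was not called, and its levels differed widely among the Ndrg3 LKO livers. *Cxcl9* had 8.81, 6.15, 10.2, 6.02 and 5.18 CPM in wild-type livers and 15.4, 5.26, 15.4, 4.13 and 14.8 in Ndrg3 LKO livers. Ndrg3 LKO replicates 1, 3 and 5 lay above all wild-type livers, replicate 4 lay below all of them, and replicate 2 lay at their lower end. The log2 fold change of *Cxcl9* was 0.59 (SE 0.37, adjusted p = 0.206, exact permutation p = 0.302). *Cxcl10* had 1.01 (SE 0.41, adjusted p = 0.0581), with 0.655 to 2.30 CPM in wild-type and 1.16 to 4.57 in Ndrg3 LKO livers. Leaving out Ndrg3 LKO replicate 2, wild-type replicate 2 or wild-type replicate 3 put *Cxcl10* past the threshold (adjusted p = 0.0159, 0.0402 and 0.0423), as did DESeq2 (adjusted p = 0.0331). *Cxcl10* overlaps *Art3* on the opposite strand.

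In the second fit, *Cxcl14*, a chemokine of epithelia, had 0.337, 0.488, 0.278, 0.643 and 1.01 CPM in wild-type and 2.10, 0.654, 1.13, 1.54 and 1.13 in Ndrg3 LKO livers and was higher, with a log2 fold change of 1.18 (SE 0.40, adjusted p = 0.0294). That call was lost when any 1 of 5 livers was left out (wild-type replicates 1, 2 and 3 and Ndrg3 LKO replicates 1 and 4, adjusted p from 0.0617 to 0.0821). *Cxcl13*, the B cell chemokine, had 0.561, 0.781, 1.002, 0.965 and 0.476 CPM in wild-type and 3.13, 0.679, 3.71, 0.684 and 0.660 in Ndrg3 LKO livers, where replicates 1 and 3 stood above the rest. Its log2 fold change was 1.16 (SE 0.54, adjusted p = 0.0974), and it passed the threshold without Ndrg3 LKO replicate 5 (adjusted p = 0.0448). *Cx3cl1*, or fractalkine, which tethers cells carrying CX3CR1, had 0.225, 0.440, 0.334, 0.276 and 0.298 CPM in wild-type and 0.949, 0.533, 0.669, 0.712 and 0.707 in Ndrg3 LKO livers, without overlap (log2 fold change 1.11, SE 0.30, adjusted p = 0.0104).

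Receptor genes were low in every liver, and 6 of the 10 tested were higher while none was lower, beside 23.9% and 22.8% of all genes in the second fit. Of these 6, *Ccr1*, *Ccr3*, *Ccr7* and *Cx3cr1* entered that fit through the Ndrg3 LKO livers. Of the 6 receptors with a TMM-normalized wild-type mean of 0.2 CPM or more, with *Cxcr3* close to that limit, 2 were higher. Without Ndrg3 LKO replicate 5 *Ccr7* was not called (adjusted p = 0.0635). The summed CPM of the 17 receptors ran from 2.43 to 4.34 in wild-type livers and was 9.69, 3.68, 10.1, 5.07 and 6.50 in Ndrg3 LKO replicates 1 to 5. Replicate 2 of Ndrg3 LKO lay within the wild-type range and the other 4 lay above it. In RNA of whole liver, a different number of cells of a type and a different amount of RNA per cell cannot be told apart.

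The 4 CC receptors tested were higher over all livers, where *Ccr1*, *Ccr3* and *Ccr7* had entered the fit through the Ndrg3 LKO livers. The values of the receptors are given after they had been seen. *Ccr2*, the receptor of inflammatory monocytes for CCL2, had 0.168, 0.391, 0.724, 0.276 and 0.417 CPM in wild-type and 2.10, 0.582, 2.34, 1.05 and 1.32 in Ndrg3 LKO livers. Only Ndrg3 LKO replicate 2 lay within the wild-type range (log2 fold change 1.84, SE 0.45, adjusted p = 0.00608). *Ccr1*, a monocyte and neutrophil receptor for CCL6 and CCL9, had 2, 0, 1, 0 and 0 counts in wild-type and 15, 6, 34, 9 and 5 in Ndrg3 LKO livers. In CPM the groups did not overlap, and the log2 fold change was 3.39 (SE 0.84, adjusted p = 0.00645). *Ccr3*, the eosinophil receptor for CCL24, had 0, 1, 0, 2 and 1 counts in wild-type and 12, 5, 30, 10 and 6 in Ndrg3 LKO livers, again without overlap in CPM (2.93, SE 0.73, adjusted p = 0.00665). With so few wild-type counts, the sizes of both fold changes depend on the prior count of the fit. *Ccr7*, the receptor of lymphocytes and mature dendritic cells for CCL19, had 1, 2, 4, 1 and 2 counts in wild-type and 11, 8, 16, 6 and 17 in Ndrg3 LKO livers (log2 fold change 1.68, SE 0.58, adjusted p = 0.0325). Leaving out any 1 of 6 livers ended its call (wild-type replicates 1, 2, 4 and 5 and Ndrg3 LKO replicates 3 and 5, adjusted p from 0.0539 to 0.0757).

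Of the 4 CXC receptors tested, *Cxcr6*, the receptor for CXCL16 on liver-resident T and natural killer cells, was higher. It had 0.281, 0.195, 0.612, 0.322 and 0.238 CPM in wild-type and 1.81, 0.775, 1.31, 0.826 and 0.236 in Ndrg3 LKO livers. Replicate 5 of Ndrg3 LKO lay within the wild-type range and the other 4 lay above it (log2 fold change 1.53, SE 0.49, adjusted p = 0.0237; without replicate 5 1.77, adjusted p = 0.00307). Its call was lost when wild-type replicate 1, 2 or 5 or Ndrg3 LKO replicate 1 or 3 was left out (adjusted p from 0.0506 to 0.0666). *Cxcr6* overlaps *Fyco1* on the opposite strand. *Cxcr4*, the receptor for CXCL12, had 1.18, 0.781, 0.278, 0.322 and 0.238 CPM in wild-type and 1.35, 0.315, 1.26, 0.969 and 1.60 in Ndrg3 LKO livers and was not called (0.89, SE 0.51, adjusted p = 0.166). *Cxcr3*, the receptor for CXCL9 and CXCL10, and *Cxcr5*, the B cell receptor for CXCL13, were not called either (0.92 and -0.70, adjusted p = 0.159 and 0.146).

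*Cx3cr1*, the fractalkine receptor of monocytes and of a subset of liver macrophages, had 0.112, 0.0488, 0.223, 0.0919 and 0.119 CPM in wild-type livers and 0.977, 0.533, 1.13, 0.598 and 0.471 in Ndrg3 LKO livers. The groups lay apart in every liver, and the log2 fold change was 2.57 (SE 0.44, adjusted p = 7.76e-04). With a wild-type mean of 0.119 CPM, *Cx3cr1* entered the fit through the Ndrg3 LKO livers and could only be called higher. *Xcr1*, the XCL1 receptor that marks cross-presenting dendritic cells, had 0.505, 0.781, 0.668, 0.276 and 0.536 CPM in wild-type and 0.546, 0.0727, 0.283, 0.0570 and 0.613 in Ndrg3 LKO livers. It was not called (-0.93, SE 0.59, adjusted p = 0.212).

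**Figure D4:**
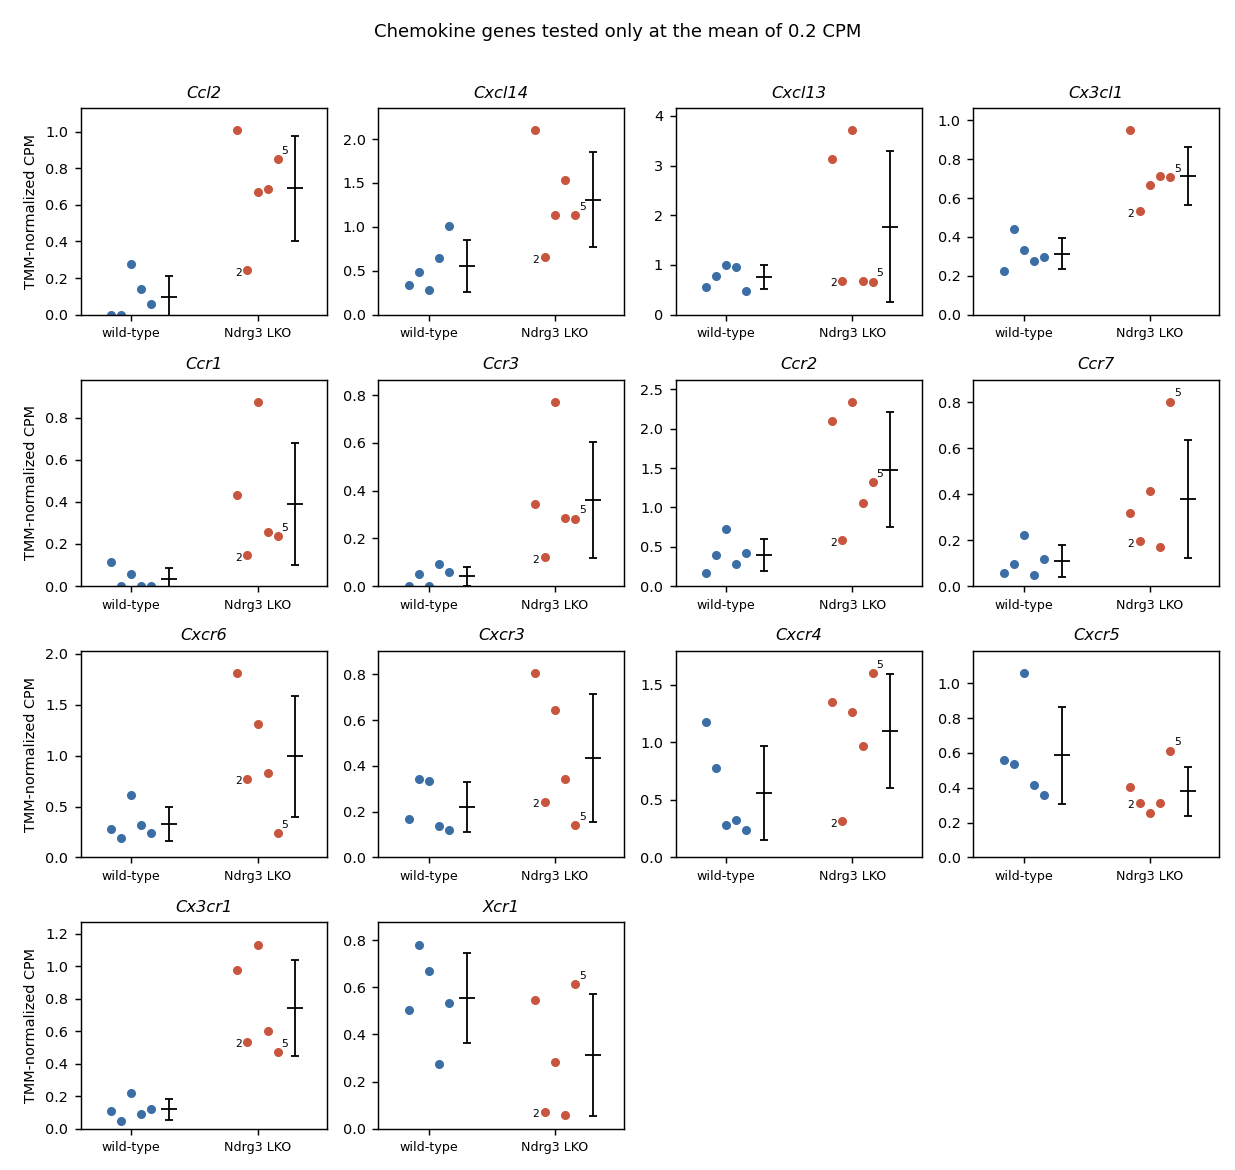
TMM-normalized CPM (vertical axis, linear and from 0, a scale per gene) of the 14 members tested only in the second fit, with wild-type livers in blue, Ndrg3 LKO livers in red and mean and SD in black. The points marked 2 and 5 are Ndrg3 LKO replicates 2 and 5. The groups do not overlap for *Cx3cl1*, *Ccr1*, *Ccr3* and *Cx3cr1*.

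The calls of known partners are set side by side here. *Ccl24* and *Ccr3*, *Ccl2* and *Ccr2*, *Ccl6* and *Ccr1*, *Cxcl16* and *Cxcr6*, and *Cx3cl1* and *Cx3cr1* were all higher in Ndrg3 LKO livers, where *Ccr3*, *Ccl2*, *Ccr1* and *Cx3cr1* had entered the fit through those livers and could not have been called lower. For *Ccl9* and *Ccr1* the receptor was higher and the ligand not called, or lower without Ndrg3 LKO replicate 5. For *Cxcl12* and *Cxcr4* the ligand was lower and the receptor not called. For *Ccl19* and *Ccr7* the receptor was higher and the ligand not called. Neither partner was called for *Cxcl9* or *Cxcl10* with *Cxcr3*, or for *Cxcl13* with *Cxcr5*. The partner of *Ccl25*, *Ccr9*, had 6, 1, 2, 4 and 1 counts in wild-type and 2, 3, 8, 3 and 1 in Ndrg3 LKO livers.

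Many chemokine genes lie side by side, and 40 of the 54 members located in the GENCODE annotation of NCBIM37 fell into 11 groups of neighbours less than 500 kb apart. The receptor group on chromosome 9 from 123587557 to 124028296 holds *Ccr9*, *Cxcr6*, *Xcr1*, *Ccr1*, *Ccr3* and *Ccr2*. Of these 6, 5 were tested, 4 were higher (23.9% of all genes in the second fit), with *Ccr1* and *Ccr3* entering through the Ndrg3 LKO livers, and *Xcr1* was not called. On chromosome 11 from 83339280 to 83478185, *Ccl6* was higher while *Ccl5* and *Ccl9* were not called, and *Ccl3* and *Ccl4* were below both limits. On chromosome 5 from 91188325 to 91334935, *Cxcl1* was higher, *Cxcl2*, *Cxcl3* and *Cxcl5* were below both limits and *Cxcl15* was at 0. On chromosome 11 from 81849073 to 82119192, *Ccl2* was higher and its neighbours *Ccl7*, *Ccl11*, *Ccl12*, *Ccl8* and *Ccl1* were below both limits. The copies of *Ccl21* and *Ccl27* on chromosome 4 are near-identical, so that reads shared between them may not have been counted.

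The 23 members below both limits had at most 16 counts in any liver and were tested only in a fit with no filter on low counts, where 18.5% of 17746 genes were higher and 16.4% lower. Of the 23, *Cxcl2*, *Ccl20* and *Cxcr2* were higher in that fit (adjusted p = 0.0134, 0.0312 and 0.0319) and *Ccl28* was lower (adjusted p = 0.0402). TMM-adjusted library sizes were larger in Ndrg3 LKO replicates 1 to 4 than in all wild-type livers, so that equal levels would give these replicates more counts. That of Ndrg3 LKO replicate 5 lay within the wild-type range. Several ligands of CXCR2 are among the 23. *Cxcl2*, whose start carries 2 of the matches shown, was counted 1, 1, 1, 1 and 0 times in the wild-type livers and 8, 3, 16, 10 and 4 times in the Ndrg3 LKO livers. *Cxcl5* had 0, 4, 0, 0 and 0 and 11, 3, 9, 3 and 2, and *Cxcl3* had counts only in Ndrg3 LKO replicate 2, where there were 2. *Cxcr2* itself, the neutrophil receptor for these ligands, had 0, 1, 0, 0 and 1 counts in wild-type livers and 14, 4, 12, 1 and 2 in Ndrg3 LKO livers.

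The macrophage chemokines *Ccl3* and *Ccl4* had 0 to 4 and 0 to 3 counts in wild-type livers and 1 to 12 and 3 to 14 in Ndrg3 LKO livers. *Ccl17* (0 to 3 and 1 to 10), *Ccl20* (0 to 1 and 1 to 9), *Ccl22* (0 to 2 and 2 to 7) and *Xcl1* (0 to 3 and 1 to 8) were also seen in every Ndrg3 LKO liver. *Ccl7* had 0 to 1 and 0 to 4 counts. *Ccl28* had 0 to 5 counts in wild-type and 0 to 1 in Ndrg3 LKO livers, and *Cxcl11*, which is annotated as a processed transcript, had 3 to 9 and 0 to 6. *Ccr9* had 1 to 6 and 1 to 8, *Ccr10* 0 to 4 and 0 to 7, *Cxcr1* 0 to 2 and 0 to 5, and *Ccr4* 0 and 0 to 4. The remaining *Ccl1*, *Ccl8*, *Ccl11*, *Ccl12*, *Cxcl17* and *Ccr8* had at most 4 counts in any liver. Apart from the 4 genes named as called, differences between these genes were not detectable at this depth.

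Markers of several cell types were higher in Ndrg3 LKO livers beside the receptors. All 6 Kupffer cell markers, among them *Marco* and *Clec4f*, were higher in the main test, where 25.6% of all genes were higher. Their summed CPM ran from 67.97 to 178 in wild-type and from 155 to 506 in Ndrg3 LKO livers. All 4 monocyte and macrophage markers in the main test were higher (21.7 to 57.4 and 56.4 to 162). In the second fit, where the receptors were tested, each of these lists had 5 of 6 markers higher, beside 23.9% of all genes. Without Ndrg3 LKO replicate 5 each had 6 of 6 higher. The monocyte markers *Itgam* and *Ly6c2* had wild-type means of 0.198 and 0.164 CPM. They entered that fit through the Ndrg3 LKO livers and could only be called higher. For both lists, and for the receptors, Ndrg3 LKO replicates 1 and 3 were the highest livers and replicate 2 the lowest Ndrg3 LKO liver. Among wild-type livers the order differed, with the highest receptor sum in replicate 3 and the highest sum of both lists in replicate 2. Of 7 neutrophil markers in the data none reached the main test and both tested in the second fit, *S100a8* and *S100a9*, were higher. *S100a8* had a wild-type mean of 0.230 CPM, close to the limit of that fit. Without Ndrg3 LKO replicate 5 neither was called (adjusted p = 0.0549 and 0.0895). The neutrophil sum ran from 0.238 to 1.06 in wild-type livers and from 0.897 to 16.03 in Ndrg3 LKO livers, with the high value in replicate 5, where *Cxcr2* had 2 counts.

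Lymphocyte and dendritic cell markers were sparse. In the second fit, 2 of 6 T cell markers, 2 of 5 B and plasma cell markers, 1 of 3 natural killer cell markers and 2 of 6 dendritic cell markers were higher, and none was lower. Among those higher, *Cd3e* and *Flt3* had wild-type means of 0.117 and 0.138 CPM. They entered through the Ndrg3 LKO livers and could only be called higher. Over all genes of that fit, 23.9% were higher and 22.8% lower. Without Ndrg3 LKO replicate 5 the counts of these 4 lists were 1, 1, 1 and 2 higher, and 1 dendritic cell marker was lower. The B and plasma cell sum was 43.0 and 39.9 CPM in Ndrg3 LKO replicates 1 and 3, the livers with the most *Cxcl13*, and between 3.95 and 11.5 in the other 3. Of the liver's structural cells, 5 of 6 endothelial and 4 of 6 stellate cell markers were higher, cholangiocyte markers were split (1 higher and 1 lower of 5, or 2 and 1 without Ndrg3 LKO replicate 5), and the 1 platelet marker tested was not called. These and the hepatocyte counts are from the main test, where 25.6% of all genes were higher and 23% lower. Of 7 hepatocyte markers 5 were lower, or 6 without Ndrg3 LKO replicate 5, and their sum was 137939 to 181067 CPM in wild-type livers and 33771 to 146354 in Ndrg3 LKO livers, with Ndrg3 LKO replicate 5 at the upper end. The part of these cell types in the chemokine differences was not tested.

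**Figure D5:**
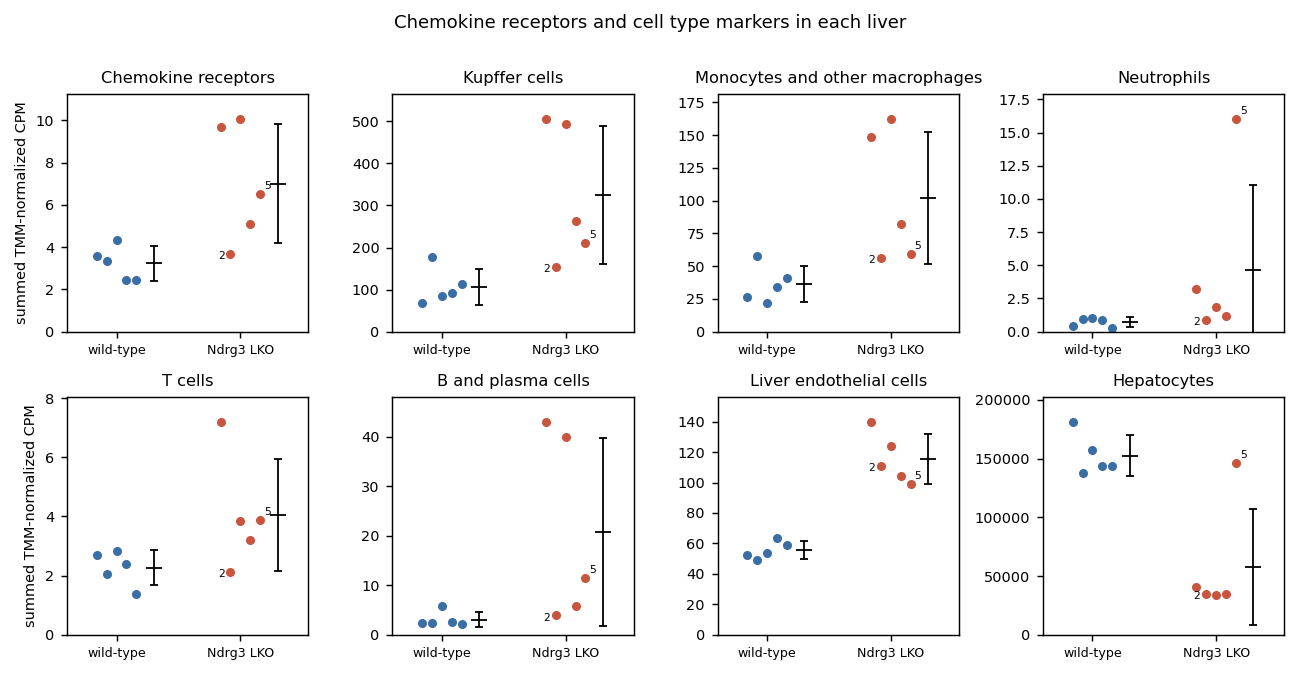
Summed TMM-normalized CPM (vertical axis, linear and from 0, a scale per panel) of 17 chemokine receptors and of 7 lists of cell type markers in the 5 wild-type (blue) and 5 Ndrg3 LKO (red) livers, with mean and SD in black. The points marked 2 and 5 are Ndrg3 LKO replicates 2 and 5. The receptor, Kupffer cell and monocyte panels show the same high livers, while the neutrophil and hepatocyte panels set Ndrg3 LKO replicate 5 apart from the other Ndrg3 LKO livers.

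Genes around the chemokine system were described from lists, whose counts stand beside 25.6% higher and 23% lower of all genes in the main test. Among atypical and related receptors, several of which bind chemokines without the usual signalling, 3 of 4 in the main test were higher and 1 lower. *Ackr2*, a scavenger of CC chemokines, fell by 2.15 on the log2 scale (adjusted p = 1.70e-04), whereas *Ccrl2* (1.40, adjusted p = 0.00423), *Gpr182* (1.14, adjusted p = 5.46e-05) and *Cmklr1*, the chemerin receptor (0.90, adjusted p = 0.0274), rose. In the second fit 3 of 7 of these receptors were higher and 2 lower, beside 23.9% and 22.8% of all genes. *Ackr4* was the added lower one (-0.97, adjusted p = 0.00961), and it was not called with scaling by total counts. The gene for chemerin, *Rarres2*, was lower (-1.96, adjusted p = 0.00390) and *Mif* was higher (0.50, adjusted p = 0.0256), the only 2 of the chemokines without a systematic symbol in the main test.

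Of the genes that process or trap chemokines, 4 of 8 were higher and 2 lower. *Mmp2*, a protease that trims several chemokines, rose by 2.32 (adjusted p = 0.00121), as did the heparan sulphate proteoglycan *Hspg2* (1.08, adjusted p = 0.00237) and *Mmp14* (0.87, adjusted p = 0.00346). *Dpp4*, the peptidase that inactivates CXCL12 and other ligands, was lower (-1.56, adjusted p = 5.14e-05). In the second fit the macrophage elastase *Mmp12* was higher (adjusted p = 5.77e-04), with 0 to 0.147 CPM in wild-type and 0.630 to 4.53 CPM in Ndrg3 LKO livers, and it entered through the latter.

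Of the signalling genes below the receptors, 10 of 14 were higher and 2 lower, of which *Jak2* turned from -0.44 to 0.09 with scaling by total counts. *Rgs16*, which switches off G protein signals, fell by 4.80 on the log2 scale (adjusted p = 3.95e-05). *Rgs2* (1.69, adjusted p = 0.00579), *Gng2* (1.39, adjusted p = 0.00327) and *Rac2* (1.24, adjusted p = 0.0137) rose. Among cytokines and factors that induce chemokine genes, 3 of 13 were higher and 3 lower. Without Ndrg3 LKO replicate 5, 5 were higher and 3 lower, and with scaling by total counts 9 and 2, where 51.9% of all genes were higher. *Tnfaip3*, an NF-kappaB target that ends its signal, was higher (1.51, adjusted p = 2.12e-04), as was *Relb* (1.29, adjusted p = 0.00698), and *Irf7* (-1.29, adjusted p = 0.00255) and *Myd88* (-1.26, adjusted p = 7.51e-05) were lower. *Il17a* had no counts, *Il6* and *Ifng* had 4 counts each over the 10 livers, and *Tnf* had 21.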

How the data were processed

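Liver RNA of 5 wild-type and 5 Ndrg3 LKO mice was sequenced as paired 100 bp reads from stranded mRNA libraries, 1 per liver. The authors mapped the reads to mm9 with STAR (version 2.7.3a per the submitters' processing notes, which also name Trim Galore 0.6.4 and Cufflinks 2.2.1) and deposited the raw counts of each gene symbol; the values are whole numbers, although the file names say CPM. The methods of the study name an earlier STAR version than those notes. The annotation and strand setting of the counting are not given in the sources used here. The labels number the livers within each group, and the p-values measure the spread between these livers.

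Counts were analysed with R 4.3.3 and edgeR 4.0.16. The main fit took the 11208 genes that reached 1 CPM in 5 livers or more. A second fit took genes with a mean of at least 0.2 CPM over all 10 livers (13422) and serves for members below the first limit. Both limits were set on CPM scaled by total counts, before TMM. Both used TMM scaling, the quasi-likelihood test and Benjamini-Hochberg adjustment over all genes tested, at a threshold of 0.05. Standard errors (SE) came from the fit, as log2 fold change over root F. Exact permutation tests were 2-sided over the 252 splits of the livers and used log2(TMM CPM + 1). A floor of 3 counts was taken, which covers counting error only. Alternatives used limma 3.58.1, DESeq2 1.42.0, other scalings and filters, the replicate number as a block, and each liver left out in turn. The fits were tested on simulated data. No 2 livers were identical, and replicates differed beyond counting error in every pair.

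Members given liver by liver were those of the main fit called with an absolute log2 fold change of at least 1, those with a mean of at least 10 CPM in either group, and their partners in that fit. All others so given, those of the second fit and below both limits included, were chosen after their values had been seen. From each pathway list up to 4 genes with the largest changes among those called are named. *Ackr4*, *Mmp12*, *Il17a*, *Il6*, *Ifng* and *Tnf* were added after their values had been seen. The members and lists were chosen with earlier results of these data known. Positions come from GENCODE for NCBIM37 (mm9), and promoter letters from RefSeq. Of the members found by the rule, 1 is not reported here and stayed out of all counts of members, but not out of the fits. Protein sequences were not used here.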

Additional observations from a re-analysis of the deposited data

Results flagged for a closer look

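For each of the 26 tested members, the highest and lowest liver of each group of 5 was compared with its nearest neighbour, as a share of the range of the group. Of the 52 member and group pairs, 2 passed Dixon's limit, and chance passes about 1 in 20.

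*Ccl9* in Ndrg3 LKO replicate 5 was at 81.4 CPM, where the nearest other Ndrg3 LKO liver had 30.2 and the lowest 11.1. The same liver stood apart from the other Ndrg3 LKO livers on the first principal component and in the hepatocyte markers *Alb*, *Apoa1*, *Ttr*, *Tat* and *Serpina1a*. It did not in *Cps1* (4425 CPM, others 3895 to 6858). Its *Cyp2e1* level (1381 CPM) was close to those of the other Ndrg3 LKO livers (721 to 1325) and far below wild-type livers (12229 to 14298). *Cxcl1* in wild-type replicate 4 was at 2.16 CPM, where the nearest other wild-type liver had 1.03. What set these livers apart was not tested.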

How the results depend on the processing

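Each result was recomputed under the other settings. Of 610 values, 548 were classed as the same, 30 as weaker, 27 as stronger, 4 as moved and 1 as reversed. For the fold change of a member, the same meant an unchanged direction and side of the threshold. For a count it meant an equal or close count, and for a median a shift within the spread of the Ndrg3 LKO livers. Weaker and stronger stood for a member that lost or gained its call, or for a count that fell or rose. *Ccl6*, *Ccl24*, *Ccl25*, *Cxcl1*, *Cxcl16*, *Ccl2*, *Ccr2* and *Cx3cr1* stayed called under every setting run for them. Scaling by total counts gave 9 members higher and 0 lower in the main test (median 1.31, with 51.9% of all genes higher). In the second it gave 21 higher and 0 lower (median 1.61, with 52% of all genes higher). It put 14 members above and 0 below without overlap, for which no share over all genes was computed. Under it 5821 of all genes were higher and 1010 lower, where TMM gave 2865 and 2578, and *Ccl27a* turned to 0.16. With no filter on low counts 17 members were higher and 2 lower in both fits (*Ccl28* and *Cxcl12*), and with a mean of 0.2 CPM 14 were higher, since more members entered. The second fit gave a median of 0.40 with limma on log2(CPM + 1), and with quantile normalization 8 higher and 3 lower (*Cxcl12*, *Cxcr5* and *Xcr1*) with a median of 0.30. The share of all genes called in the second fit was not computed for these settings. Both add 1 to CPM, which shrinks changes of low genes. Leaving out 1 liver gave between 1 and 2 lower members in both fits and, without Ndrg3 LKO replicate 5, 2 below without overlap, *Ccl9* being the added one. No share over all genes was computed for that last count.

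Livers with the same number were compared by their departures from the group means, which had correlations between -0.357 and 0.0363, so the numbers were not taken as pairs. With the replicate block the second fit gave 2 lower members (*Ccl9* and *Cxcl12*), and *Cx3cl1* and *Cxcl14* lost their calls (adjusted p = 0.0512 and 0.0531). Over all genes the block gave 2215 higher and 2197 lower. The settings for marker and pathway lists and for levels per kilobase were chosen after seeing the data. Depth limits the 23 members below both filters, of which the fit with no filter called 4.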
